A study of Mus musculus with 20 samples.

Results

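Replication-dependent histone genes are the clustered copies that supply linker histone H1 and the core histones H2A, H2B, H3 and H4 to replicating DNA. They were taken by symbol (Hist1h, Hist2h, Hist3h or Hist4h at its start) with at least 10 counts summed over the 20 libraries of the series. The deposited tables listed 47729 genes, 68 of which had such a symbol, and 55 of the 68 reached 10 counts. Of these 55 members, 46 belong to the Hist1 cluster on chromosome 13, 5 to Hist2 on chromosome 3, 3 to Hist3 on chromosome 11 and 1, Hist4h4, to chromosome 6. By class they were 6 H1, 13 H2A, 13 H2B, 10 H3 and 13 H4 genes, and 47 of the 55 (6 H1, 10 H2A, 10 H2B, 10 H3 and 11 H4) passed the filter on low counts and were tested.

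Polyadenylated RNA was sequenced from colon fibroblasts of C57BL6/J mice, grown on plates in Advanced DMEM F12 with 10% FBS, in a study of inflammatory fibroblasts and the response of rectal cancer to therapy before surgery. There were 5 groups of 4 libraries: untreated fibroblasts, and fibroblasts exposed for 24 h to medium of APTK organoids, of APTKA organoids, or of an arm of either that was irradiated in 5 fractions of 2 Gy. All groups share the strain and the cell type. The titles of the untreated libraries read wild-type fibroblasts, and the other titles state no genotype of the fibroblasts. The labels do not spell out APTK or APTKA, do not say whether organoids or fibroblasts received the radiation, and hold neither an irradiated untreated group nor a group given organoid medium that no organoid had conditioned. The labels do not tie replicates to separate cultures or mice, and p-values therefore reflect only how much these libraries vary, possibly for technical reasons. In bulk RNA, a larger share of cells in S phase and more histone RNA per cell cannot be told apart.

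As background, most of these genes are switched on when cells copy their DNA, through the coactivator Npat and cyclin E with Cdk2. Their messenger RNAs usually end just after a conserved stem-loop, which is bound by the protein Slbp, and carry no poly(A) tail. Some copies also give longer, polyadenylated transcripts, mostly described in cells that divide little. Selection of polyadenylated RNA therefore favours the long forms, and the values here are not a measure of all histone messenger RNA.

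Library totals lay between 17.3 and 31.6 M counts, of which members took 0.0527 to 0.11%. Levels are given as CPM, counts relative to the scaled library total, for replicates 1 to 4 in that order. Differences are log2 fold changes from edgeR's quasi-likelihood test over 14820 genes, with p-values adjusted after Benjamini and Hochberg and a gene called at a false discovery rate of 5%. The fibroblast markers (10 of 10 tested) summed to 63730 to 71690 CPM in untreated libraries, 55350 to 61420 under APTK, 36650 to 40490 under APTKA, 49330 to 58280 under irradiated APTK and 37260 to 47600 under irradiated APTKA medium. Of the 10, 9 fell with APTKA medium against untreated, where 29.9% of all genes tested were called lower. With APTK medium Col3a1 fell (-0.53), while Lum (0.48), Pdgfra (1.69) and Thy1 (0.41) rose. Over all 20 libraries, epithelial markers summed to 1.29 to 2.61 CPM (3 of 8 tested), endothelial to 1.05 to 3.44 (4 of 5), leukocyte to 4.59 to 10 (3 of 6), glial to 0.737 to 3.08 (1 of 4), and pericyte and smooth muscle markers to 652.5 to 889.7 CPM (5 of 5). Erythroid and mesothelial markers stayed at or below 0.55 CPM in sum, with Hba-a1 and Hbb-bs at 0. Their part in the results was not tested. Copies share sequence: the share of a member's 50-base transcript windows found in no other gene ran from 6% (Hist1h2af) to 100% (Hist1h1a, Hist1h1b, Hist1h1t and Hist2h2be) among tested members, so values of the former kind are uncertain.

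The annotated transcripts (GENCODE, mm10) show the stem-loop itself. A search for a consensus with a stem of 6 bases around a loop of 4 found it in 39 of the 55 members, each time with all 6 bases paired. The consensus fixes the outer GG and CC and the innermost T and A of the stem. Between them it allows only C or T opposite A or G, so much of the stem-loop's pairing was set in advance. Its stem differed by class: the left arm was GGCTCT in all 27 H1, H2A, H2B and H3 genes that had it, whereas the 12 H4 genes had GGCCCT (10 genes) or GGTCCT (2 genes). The forms of 8 members that the results below turn on are given with 5 bases before and 9 after, 5′ to 3′, the paired arms in capitals.
Hist1h1c: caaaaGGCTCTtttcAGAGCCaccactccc
Hist1h2ab: acaaaGGCTCTtttcAGAGCCacccacatc
Hist1h2bb: ccaaaGGCTCTtttaAGAGCCacccacact
Hist1h3b: ccaaaGGCTCTtttcAGAGCCacccacagt
Hist1h4a: ccaaaGGCCCTtctcAGGGCCgcccacatt
Hist1h4b: caaaaGGTCCTtttcAGGACCactcactga
Hist1h4d: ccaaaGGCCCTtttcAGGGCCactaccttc
Hist1h4j: ctaaaGGTCCTtttcAGGACCaccacatct
Hist1h4b and Hist1h4j are the 2 genes with the GGTCCT stem. Hist1h2bb shows the loop ttta, found in 6 members of the classes H1, H2B and H3 and in no H4 gene.

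The transcripts differ in how far they run past the stem-loop. With a division at 100 bases, chosen after the distances were seen, 21 members ran further, 18 ended within it and 16 had no such motif in the annotated transcript. Several of these 16 models are short, such as Hist1h4k (312 bases), Hist1h2bl (381) and Hist1h3h (411), while Hist2h2be has 2620 bases. A model that stops before the stem-loop cannot show it, so the 16 are not a kind of RNA end. The 21 long genes include the linker gene Hist1h1c (chr13:23738808-23740367, 840 bases past the stem-loop) and the H4 genes Hist1h4d (chr13:23581598-23582735, 770 bases) and Hist1h4c (chr13:23697635-23698454, 454 bases). Hist1h2bb, Hist1h2ab and Hist1h4b end 23, 11 and 28 bases past it. The poly(A) signal AATAAA stands within 40 bases of the end of 12 members, and the last 30 bases of 2 of them are given with the signal in capitals.
Hist1h1c: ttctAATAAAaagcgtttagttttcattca
Hist1h4a: aAATAAAccttgagtgcctttggagaattg
A match to the letters is a description of the transcript model, not a mapped RNA end.

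Upstream sequence also differed by class. RefSeq's promoter table (GRCm38.p6) held 49 of the 55 members, and the 250 bases before each start were searched on both strands for 4 strings that do not contain one another: the box CCAAT, the TATA box as TATAAA, the octamer ATTTGCAT and the GC box GGGCGG. The box CCAAT stood in all 6 H1, 13 H2A and 10 H2B promoters, 7 of 8 H3 promoters and 3 of 12 H4 promoters, against 33.8% of all 32851 promoters in the table. GGGCGG stood in 9 of 12 H4 promoters, 4 of 6 H1, 2 of 13 H2A, 0 of 10 H2B and 1 of 8 H3, against 32.7% of all. The octamer was found in 6 H2A and 4 H2B promoters and in no H1, H3 or H4 promoter, against 1.6% of all, and TATAAA in 27 of the 49, against 12.4%. Some H2A and H2B genes lie head to head with overlapping windows, so the same site can count for both genes. This holds for the octamer of Hist1h2ae and Hist1h2bg, and for that of Hist1h2ah and Hist1h2bk. Counts of H2A and H2B promoters are therefore not counts of separate sites. No match says only that these letters are not in the window. The 100 bases before the start are shown for the most abundant linker gene, for the linker gene that moved opposite to it, and for core genes that rose with APTKA medium, with these strings in capitals (ATTGG and CCGCCC are CCAAT and GGGCGG on the other strand).
Hist1h1c (chr13:23738707-23738806, plus strand): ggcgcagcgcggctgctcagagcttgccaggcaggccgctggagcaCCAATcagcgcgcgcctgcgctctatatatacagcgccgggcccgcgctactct
Hist1h1b (chr13:21780626-21780725, minus strand): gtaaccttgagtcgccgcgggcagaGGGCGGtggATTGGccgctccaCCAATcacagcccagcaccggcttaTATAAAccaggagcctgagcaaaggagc
Hist1h2ab (chr13:23750988-23751087, plus strand): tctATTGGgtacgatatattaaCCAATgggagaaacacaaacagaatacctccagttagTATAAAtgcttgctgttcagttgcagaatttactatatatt
Hist1h2bb (chr13:23746634-23746733, plus strand): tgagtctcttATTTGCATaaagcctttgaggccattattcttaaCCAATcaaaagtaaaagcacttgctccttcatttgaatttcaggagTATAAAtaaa
Hist1h4a (chr13:23761250-23761349, minus strand): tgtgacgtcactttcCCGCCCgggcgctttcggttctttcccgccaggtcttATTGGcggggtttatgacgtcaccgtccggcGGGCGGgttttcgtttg
Hist1h4c (chr13:23698459-23698558, minus strand): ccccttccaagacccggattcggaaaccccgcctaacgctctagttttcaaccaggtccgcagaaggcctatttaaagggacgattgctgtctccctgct
Hist1h4d (chr13:23581468-23581567, plus strand): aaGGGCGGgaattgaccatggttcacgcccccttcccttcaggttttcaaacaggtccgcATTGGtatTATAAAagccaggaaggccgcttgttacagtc
Hist1h4f (chr13:23551669-23551768, minus strand): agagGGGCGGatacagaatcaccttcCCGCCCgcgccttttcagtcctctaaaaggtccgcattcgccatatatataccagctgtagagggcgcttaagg
Hist1h1c and Hist1h1b, whose RNA differed in opposite directions with APTKA medium, both carry CCAAT here. Hist1h4c shows none of the 4 strings in its 100 bases, and the other 3 H4 genes each show GGGCGG on either strand.

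A single gene dominated the members' RNA. Hist1h1c, which encodes a linker histone that binds DNA at the nucleosome's entry, averaged 281 CPM over the 20 libraries, followed by the H2B gene Hist1h2bc at 113, the H4 gene Hist1h4d at 53.5 and the linker genes Hist1h1e at 43.8 and Hist1h1d at 35 CPM. Per kilobase of exon the order was Hist1h1c (179.9 CPM per kb), Hist1h2bc (97.8), Hist1h4h (55.6), Hist1h4d (47) and Hist1h4c (28.2). Hist1h1c made up 29.3% of the members' CPM in untreated libraries on average, 29.7% under APTK, 39.8% under APTKA, 33.95% under irradiated APTK and 45.1% under irradiated APTKA medium.

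The summed CPM of all 55 members was 660.3 ± 31.9 in untreated libraries, 678 ± 68 with APTK medium and 948 ± 87.2 with APTKA medium (SD, n = 4). It was 617 ± 70.8 under irradiated APTK and 933 ± 41.4 with irradiated APTKA medium. All 8 libraries of the 2 APTKA groups lay above all 12 others. Without Hist1h1c the means were 467, 478, 569, 407 and 512 CPM in the same order, and APTKA libraries then overlapped APTK libraries, whose replicate 1 was highest at 576. That replicate was also highest among the 20 libraries for small RNAs without a poly(A) tail (Rn7sk, Rmrp, Rpph1 and others), with 22018 CPM against 9978 to 17328 in the rest. Small RNAs of this kind summed to 14927 to 17328 CPM in untreated libraries, 11968 to 22018 under APTK, 9978 to 13439 under APTKA, 12245 to 17187 under irradiated APTK and 11444 to 12536 under irradiated APTKA medium. Adding this level to the model, an alternative chosen after seeing the data, moved several members' values, which are given beside those genes.

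**Figure D1:**
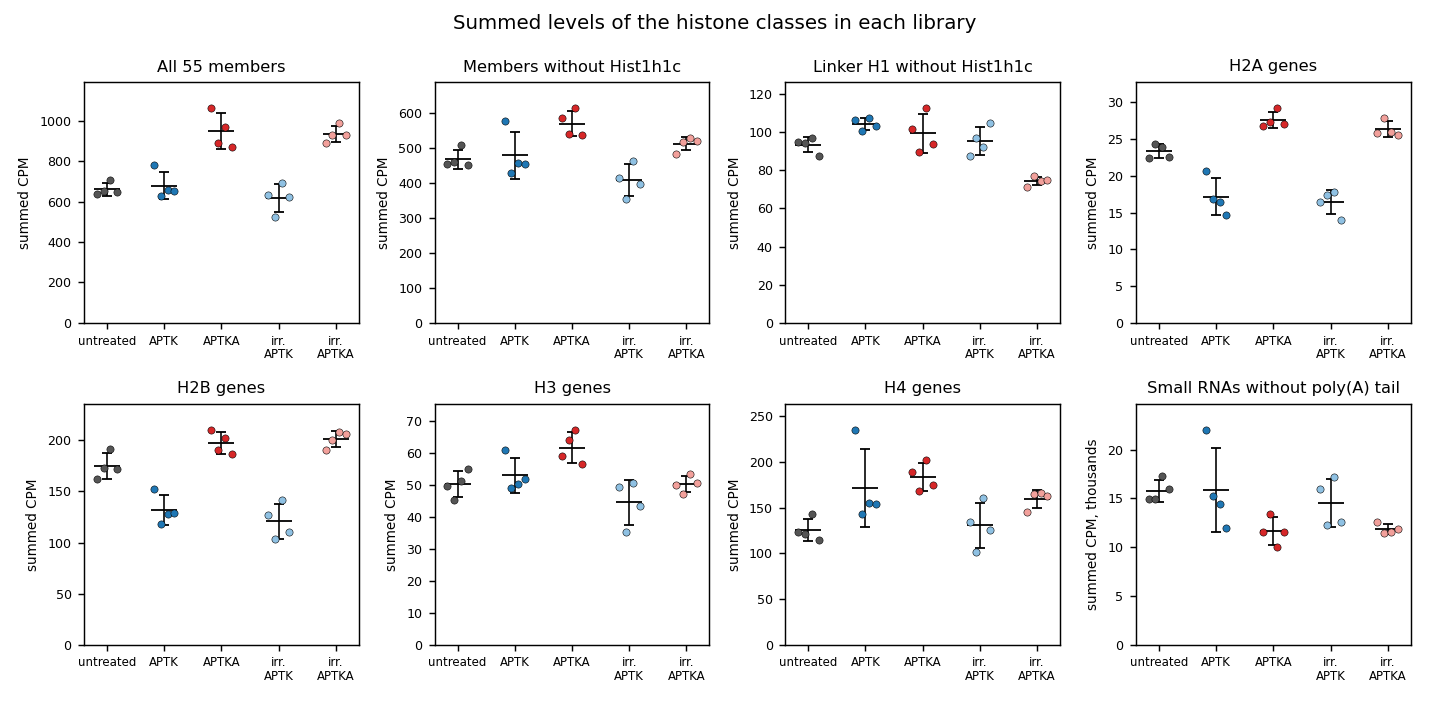
Summed CPM of all members, of members or linker genes without Hist1h1c, of each core class, and of small RNAs without a poly(A) tail on its own axis, 1 point per library, with the mean and SD of 4 libraries. The 8 APTKA libraries lie above the other 12 for all members, and APTK replicate 1 stands at the top of its group for H4 genes and for the small RNAs.

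The order of the groups differed between classes. H2A genes summed to 22.5, 24.3, 24 and 22.6 CPM in untreated libraries, 20.6, 16.9, 16.4 and 14.7 with APTK and 26.7, 27.4, 29.2 and 27.1 with APTKA medium, so that the 3 groups did not overlap, APTK being lowest. A single gene, Hist3h2a, averaged 10.8 of the class's 22.2 CPM over the 20 libraries. With APTKA medium against untreated, 7 of the 10 tested H2A genes had fitted values below 0 and 3 above, with a median of -0.12. H2B genes summed to 175 CPM on average in untreated libraries, 132 with APTK and 197 with APTKA medium. Without Hist1h2bc these H2B means were 53.2, 46.4 and 62.5 CPM. H4 genes ran the other way with APTK medium, with 235, 143, 155 and 154 CPM against 123, 121, 143 and 115 in untreated libraries. The lowest APTK value of H4, 142.6, fell just under the highest untreated value, 143.0. H4 sums with APTKA medium were 189, 168, 202 and 175 CPM, all above the untreated ones. Linker genes other than Hist1h1c summed to 93.5, 104 and 99.4 CPM with no medium, APTK and APTKA medium. These sums are given without a test.

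With APTKA medium against untreated fibroblasts, the members' calls were mostly higher ones, at a share below that of all genes. Of the 47 members, 20 were called higher and 4 lower, or 51.1%, where 61.4% of all 14820 genes tested were called (31.5% higher and 29.9% lower). The groups did not overlap for 22 members, against 56.1% of all genes. The members' median log2 fold change was 0.24, and that of all genes tested 0.00. Higher calls fell on 3 H1, 2 H2A, 3 H2B, 5 H3 and 7 H4 genes, and the lower ones on Hist1h1b, Hist1h1t, Hist1h2ad and Hist2h3c2.

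APTK medium against untreated fibroblasts gave 8 higher and 12 lower calls, 42.6% of members against 43.4% of all genes tested (20.9% higher, 22.5% lower). Here 17 members did not overlap between groups, against 42.8% of all genes, and the median was -0.04 beside 0.00 for all genes. The higher calls were 5 H4 genes, 2 H3 genes and Hist1h1e. Among the lower ones were 5 H2A, 3 H2B and 2 H1 genes, with Hist2h3c2 and Hist1h4i. No H2A or H2B gene was called higher. Leaving out 1 library at a time left 8 higher calls in every case and 8 to 10 lower ones.

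APTKA medium compared directly with APTK medium gave 18 members higher and 1 lower, or 40.4%, against 62.9% of all genes tested (31.1% higher, 31.8% lower), with a median of 0.28 beside -0.03. Groups did not overlap for 18 members, against 59.7% of all genes. The higher calls comprised 2 H1, 3 H2A, 6 H2B, 4 H3 and 3 H4 genes, and Hist1h1b was the lower one. With upper quartile scaling the median of all genes moved to -0.10 and the calls became 16 higher and 5 lower. The 3 comparisons of media share libraries, so their values are set side by side and not counted as separate evidence.

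**Figure D2:**
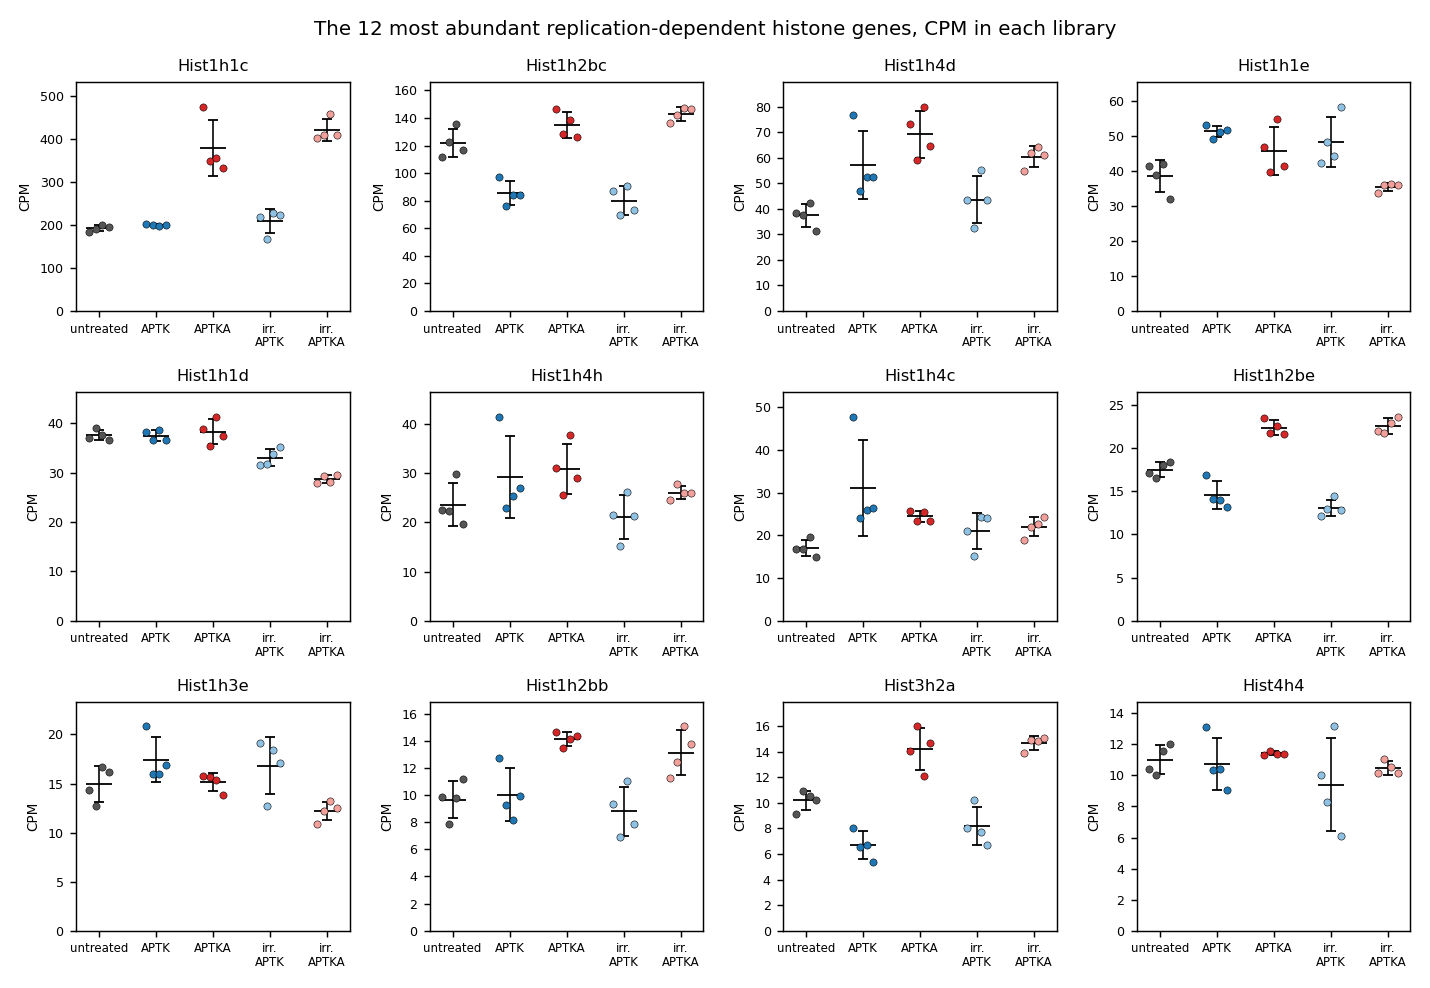
CPM of the 12 most abundant members, 1 point per library, with the mean and SD of 4 libraries per group. Hist1h1c lies between 334 and 476 CPM in the 8 APTKA libraries and between 168 and 229 in the other 12, whereas Hist1h4c and Hist1h4d are lowest in untreated libraries or with irradiated APTK medium.

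Among linker genes, Hist1h1c and Hist1h1b moved apart. Hist1h1c had 185, 192, 200.2 and 195 CPM untreated, 203, 201, 199 and 199.8 under APTK, 476, 349, 357 and 334 under APTKA, 219, 168, 229 and 224 under irradiated APTK and 404, 410.2, 459 and 411 under irradiated APTKA medium. The 8 APTKA libraries were all above the 12 others, and APTK libraries overlapped the untreated ones. Against untreated fibroblasts its difference with APTKA medium was 0.97, SE 0.0927, edgeR adjusted p = 4.33e-09, and 0.92, SE 0.0926, edgeR adjusted p = 1.11e-08 against APTK medium. With APTK medium it was 0.05, SE 0.0922, edgeR adjusted p = 0.669. Hist1h1b, another linker subtype, gave 10.8, 11.3, 12.5 and 12.8 CPM untreated, 9.03, 9.26, 11.5 and 9.93 under APTK, 8.91, 7.96, 7.48 and 8.27 under APTKA, 9.18, 10, 9.08 and 6.75 under irradiated APTK and 4.83, 5.91, 5.24 and 5.41 under irradiated APTKA medium. APTKA libraries were all below the untreated ones, and those of irradiated APTKA medium were the lowest of the 20. Its difference with APTKA medium was -0.54, SE 0.106, edgeR adjusted p = 7.64e-05. Against APTK medium it was -0.28, SE 0.107, edgeR adjusted p = 0.0241, a call lost without APTKA replicate 2 (0.0558), APTKA replicate 3 (0.0736) or APTK replicate 3 (0.129, all edgeR adjusted p). The fall with APTK medium, -0.26, SE 0.105, edgeR adjusted p = 0.0488, was lost without any one of 6 of the 8 libraries (untreated 2, 3 and 4, APTK 1, 2 and 4; edgeR adjusted p 0.053 to 0.138). It was lost too with upper quartile scaling (0.0877), no expression filter (0.0571) or the small RNA level in the model (0.0518, all edgeR adjusted p). The last 2 settings also ended the call between the media (edgeR adjusted p = 0.0506 and 0.0622).

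Hist1h1e gave 41.3, 38.7, 41.8 and 32 CPM untreated, 53, 49.1, 51.1 and 51.6 under APTK, 46.7, 39.5, 54.9 and 41.3 under APTKA, 42.2, 48.3, 44.2 and 58.2 under irradiated APTK and 33.6, 36, 36.2 and 35.9 under irradiated APTKA medium. APTK libraries lay above all untreated ones, and the difference was 0.41, SE 0.0983, edgeR adjusted p = 0.00145. With APTKA medium it was 0.24, SE 0.0986, edgeR adjusted p = 0.0355, with overlapping groups, and the call was lost without untreated replicate 2 or 4 or APTKA replicate 1 or 3 (log2 0.15 to 0.25, edgeR adjusted p 0.0583 to 0.181). It was also lost with upper quartile scaling (0.21, edgeR adjusted p = 0.0758), with only the compared groups in the fit (0.25, 0.0753) and with the small RNA level in the model (0.12, 0.4). Hist1h1e shares exon bases with Hist1h2be on the same strand, so their reads cannot be fully told apart. Hist1h1d, also a somatic linker gene, held 37.1, 39.1, 37.6 and 36.6 CPM untreated, 38.1, 36.6, 38.6 and 36.5 under APTK, 38.9, 35.4, 41.3 and 37.4 under APTKA, 31.5, 31.7, 33.8 and 35.1 under irradiated APTK and 28, 29.4, 28 and 29.6 under irradiated APTKA medium. Its untreated, APTK and APTKA libraries overlapped and it was not called, with log2 values of 0.00 and 0.02 against untreated (edgeR adjusted p = 0.961 and 0.721). The testis-type gene Hist1h1t was rare, with 0.6, 0.518, 0.312 and 0.598 CPM untreated, 0.192, 0.421, 0.219 and 0.085 under APTK and 0.168, 0.14, 0.087 and 0.157 under APTKA medium. It fell with APTKA medium (-1.82, SE 0.472, edgeR adjusted p = 0.00153). With APTK medium the value was -1.11, and the call (edgeR adjusted p = 0.0377) was lost without untreated replicate 1, 2 or 4 or APTK replicate 1, 3 or 4 (edgeR adjusted p 0.0628 to 0.122), with DESeq2 (adjusted p = 0.0609) or with no expression filter (edgeR adjusted p = 0.0512). Hist1h1a rose with APTKA medium, from 5, 4.79, 5 and 5.49 CPM untreated to 6.93, 6.73, 8.83 and 6.43 under APTKA medium (0.51, SE 0.129, edgeR adjusted p = 0.00125), with no overlap.

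Of the 10 tested H2A genes, 5 fell with APTK medium and 0 rose, and with APTKA medium 2 rose and 1 fell. Of all genes tested, 22.5% fell and 20.9% rose with APTK medium, and 31.5% rose and 29.9% fell with APTKA medium. H2A forms the outer dimers of the nucleosome with H2B. Hist3h2a, the most abundant H2A member, had 9.16, 10.9, 10.5 and 10.2 CPM untreated, 8.06, 6.58, 6.73 and 5.39 under APTK, 14.1, 16, 12.1 and 14.7 under APTKA, 8.03, 10.2, 7.75 and 6.71 under irradiated APTK and 13.9, 14.9, 14.9 and 15.1 under irradiated APTKA medium. Its untreated, APTK and APTKA groups were separate, in the order APTK, untreated, APTKA. The differences were -0.61, SE 0.117, edgeR adjusted p = 0.000122 for APTK medium, 0.48, SE 0.11, edgeR adjusted p = 0.000413 for APTKA medium and 1.09, SE 0.114, edgeR adjusted p = 3.72e-09 between them. It shares exon bases with Trim17 on the same strand. Hist1h2ab gave 3, 2.67, 3.12 and 3.55 CPM untreated, 2.57, 2.14, 2.05 and 2.16 under APTK, 4.57, 3.68, 7.27 and 5.21 under APTKA, 1.92, 1.61, 2.07 and 1.41 under irradiated APTK and 4.11, 4.86, 4.31 and 4.01 under irradiated APTKA medium. Its 8 APTKA libraries lay above all 12 others. The difference between the media was 1.20, SE 0.166, edgeR adjusted p = 4.7e-07, and against untreated 0.73, SE 0.16, edgeR adjusted p = 0.000256. Its fall with APTK medium, -0.47, SE 0.177, edgeR adjusted p = 0.0321, was lost without untreated replicate 3 or 4 or APTK replicate 2, 3 or 4 (edgeR adjusted p 0.0577 to 0.102).

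The rarer genes Hist1h2ad and Hist1h2ac showed the largest H2A falls with APTK medium. Hist1h2ad had 1.48, 1.64, 1.25 and 1.31 CPM untreated, 0.499, 0.765, 0.695 and 0.467 under APTK and 0.841, 0.701, 0.74 and 1.25 under APTKA medium. APTK libraries were all below untreated ones, and the difference was -1.21, SE 0.247, edgeR adjusted p = 0.00025. With APTKA medium it was -0.68, SE 0.231, edgeR adjusted p = 0.0127, with overlapping groups. Hist1h2ac had 1.24, 1.08, 0.898 and 0.822 CPM untreated, 0.499, 0.65, 0.695 and 0.255 under APTK and 0.908, 0.911, 0.87 and 0.98 under APTKA medium. It fell with APTK medium (-0.91, SE 0.27, edgeR adjusted p = 0.00716) and was higher with APTKA than with APTK medium (0.78, SE 0.271, edgeR adjusted p = 0.0139), a call lost without APTK replicate 4 (log2 0.57, edgeR adjusted p = 0.0655).

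Of the 10 tested H2B genes, 3 fell with APTK medium, 3 rose with APTKA medium and 6 were higher with APTKA than with APTK medium. The shares of all genes tested were 22.5%, 31.5% and 31.1% in the same order. Hist1h2bc, whose annotated model is spliced and holds no stem-loop, gave 111, 123, 135 and 117 CPM untreated, 97.3, 76.3, 84.3 and 84.3 under APTK, 147, 129, 139 and 126 under APTKA, 86.7, 69.4, 90.8 and 73.4 under irradiated APTK and 136, 142, 147 and 147 under irradiated APTKA medium. All APTK libraries, plain and irradiated, lay below the 12 others. Its difference was -0.51, SE 0.0797, edgeR adjusted p = 1.18e-05 with APTK medium and 0.66, SE 0.0796, edgeR adjusted p = 8.92e-08 between the media. Against untreated, APTKA medium gave 0.15, SE 0.0789, edgeR adjusted p = 0.102, which became a call without untreated replicate 3 (log2 0.21, edgeR adjusted p = 0.0338), with only the compared groups in the fit (0.16, 0.0267) or with the small RNA level in the model (0.30, 0.00391). Hist1h2be had 17.1, 16.5, 18 and 18.3 CPM untreated, 16.9, 14.1, 14 and 13.1 under APTK, 23.4, 21.7, 22.5 and 21.6 under APTKA, 12.1, 13, 14.4 and 12.8 under irradiated APTK and 21.9, 21.7, 22.9 and 23.6 under irradiated APTKA medium. Its APTKA libraries, plain and irradiated, were above all others, at 0.35 against untreated (edgeR adjusted p = 0.000167) and 0.62 against APTK medium (edgeR adjusted p = 4.76e-08). It fell with APTK medium, with overlapping groups (-0.27, SE 0.0759, edgeR adjusted p = 0.00529). Hist1h2bb held 9.88, 7.85, 9.76 and 11.2 CPM untreated, 12.7, 9.29, 8.16 and 9.93 under APTK, 14.6, 13.5, 14.1 and 14.4 under APTKA, 9.34, 6.94, 11 and 7.85 under irradiated APTK and 11.3, 12.4, 15.1 and 13.8 under irradiated APTKA medium. It rose with APTKA medium (0.55, SE 0.131, edgeR adjusted p = 0.000804), without overlap, while APTK medium left a log2 difference of 0.05 (edgeR adjusted p = 0.803).

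Among the 10 H3 genes, 5 of the Hist1 cluster rose with APTKA medium (31.5% of all genes tested rose), and the Hist2 gene Hist2h3c2 fell with both media. H3 carries many of the modified tail residues of chromatin. Hist1h3b gave 5.16, 4.74, 5.94 and 6.01 CPM untreated, 5.15, 4.63, 4.32 and 3.9 under APTK, 8.68, 9.22, 12.1 and 9.88 under APTKA, 3.9, 4.42, 4.38 and 2.93 under irradiated APTK and 7.89, 6.66, 8.3 and 8.35 under irradiated APTKA medium. Its 8 APTKA libraries were above all 12 others, at 0.86, SE 0.125, edgeR adjusted p = 1.04e-06 against untreated and 1.14, SE 0.127, edgeR adjusted p = 1.22e-08 against APTK medium. With APTK medium against untreated the value was -0.28 (edgeR adjusted p = 0.0932). Hist2h3c2 showed the largest fall of all tested members with APTK medium, with 4.64, 4.96, 4.37 and 3.66 CPM untreated, 1.19, 0.841, 1.35 and 1.02 under APTK, 1.55, 1.89, 2.13 and 0.863 under APTKA, 1.37, 0.631, 1.58 and 1.17 under irradiated APTK and 2.16, 1.58, 1.67 and 1.32 under irradiated APTKA medium. Every conditioned library lay below every untreated one. The difference was -1.99, SE 0.22, edgeR adjusted p = 3.24e-08 with APTK medium and -1.45, SE 0.206, edgeR adjusted p = 6.92e-07 with APTKA medium. Between the media it was 0.54, SE 0.247, edgeR adjusted p = 0.0605, and it became a call without APTKA replicate 4 (log2 0.74, edgeR adjusted p = 0.00715) or APTK replicate 3 (0.66, 0.0417). Of its transcript windows 36.5% occur in no other gene, and its near copies Hist2h3b and Hist2h3c1 had 0 counts in all libraries. Hist1h3e, the most abundant H3 member, had 14.3, 12.7, 16.6 and 16.2 CPM untreated, 20.8, 15.9, 16 and 16.9 under APTK, 15.8, 15.7, 15.4 and 13.8 under APTKA, 19.1, 12.7, 18.4 and 17.1 under irradiated APTK and 10.9, 12.2, 13.2 and 12.5 under irradiated APTKA medium, and its values against untreated were 0.22 and 0.02 for APTK and APTKA medium (edgeR adjusted p = 0.106 and 0.886).

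H4 was the class with the most higher calls in both media, 5 of 11 with APTK and 7 of 11 with APTKA medium. Of all genes tested, 20.9% and 31.5% were called higher. By fitted value 5 of the 11 lay below 0 with APTK and 1 with APTKA medium. H4 copies share sequence, so these calls are not independent. Hist1h4b shares 52% of its transcript windows with Hist1h4a, Hist1h4f 31.6% and Hist1h4c 19.6%. Windows found in no other gene are 24.1% for Hist1h4b and 89.8% for Hist1h4d. The H4 copies encode a nearly invariant protein, which pairs with H3 at the nucleosome's core. Hist1h4d had 38.3, 37.4, 42.4 and 31.4 CPM untreated, 76.6, 46.9, 52.3 and 52.3 under APTK, 73.3, 59.2, 79.9 and 64.4 under APTKA, 43.4, 32.5, 55.2 and 43.3 under irradiated APTK and 54.8, 62, 64.1 and 60.9 under irradiated APTKA medium. All plain conditioned libraries lay above all untreated ones, at 0.61, SE 0.16, edgeR adjusted p = 0.00503 with APTK medium and 0.89, SE 0.159, edgeR adjusted p = 0.000103 with APTKA medium. Hist1h4c gave 16.7, 16.9, 19.6 and 15 CPM untreated, 47.7, 24.1, 25.9 and 26.4 under APTK, 25.7, 23.4, 25.4 and 23.3 under APTKA, 21.1, 15.1, 24.2 and 23.9 under irradiated APTK and 18.9, 22, 22.6 and 24.2 under irradiated APTKA medium. Both media were above untreated, APTK replicate 1 far above its group, with 0.87, SE 0.187, edgeR adjusted p = 0.00107 for APTK and 0.52, SE 0.188, edgeR adjusted p = 0.0234 for APTKA medium. The latter call was lost without untreated replicate 4 (0.0699) or APTKA replicate 1 (0.0507, both edgeR adjusted p). With the small RNA level in the model it was 0.88 (edgeR adjusted p = 0.000189). Hist1h4b had 5.88, 5.26, 5.43 and 5.34 CPM untreated, 14.3, 8.8, 9.44 and 9.38 under APTK, 10.7, 10.4, 8.4 and 9.53 under APTKA, 8.69, 3.84, 8.84 and 5.86 under irradiated APTK and 6.77, 8.61, 7.64 and 9.21 under irradiated APTKA medium. Plain conditioned libraries did not overlap untreated ones, at 0.94, SE 0.19, edgeR adjusted p = 0.000392 and 0.84, SE 0.19, edgeR adjusted p = 0.000632. It overlaps 4930558J22Rik on the opposite strand.

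Hist1h4a and Hist1h4f were also higher with both media. Hist1h4a had 2.92, 2.93, 3.32 and 2.84 CPM untreated, 8.83, 4.93, 4.35 and 5.13 under APTK, 6.22, 4.87, 5.66 and 5.06 under APTKA, 4.51, 2.64, 6.03 and 5.19 under irradiated APTK and 4.61, 4.92, 4.73 and 6.09 under irradiated APTKA medium, with differences of 0.95, SE 0.209, edgeR adjusted p = 0.000729 for APTK and 0.86, SE 0.21, edgeR adjusted p = 0.00106 for APTKA medium. Hist1h4f had 2.84, 2.5, 3.71 and 2.76 CPM untreated, 6.61, 3.79, 4.13 and 4.12 under APTK, 4.14, 4.91, 4.92 and 3.88 under APTKA, 4.12, 3.5, 4.1 and 4.02 under irradiated APTK and 3.6, 2.91, 4.34 and 2.22 under irradiated APTKA medium, with 0.66, SE 0.182, edgeR adjusted p = 0.00478 and 0.59, SE 0.183, edgeR adjusted p = 0.00677 for the plain media. For both genes, no plain conditioned library lay within the untreated range. Irradiated APTK replicate 2 was below it for Hist1h4a, and 3 irradiated libraries lay inside it for Hist1h4f. With the small RNA level in the model, the value of Hist1h4f with APTKA medium was 0.90 (edgeR adjusted p = 0.000417). Hist1h4j differed from these 5, with 1.88, 2.29, 2.42 and 1.98 CPM untreated, 2.23, 1.65, 1.86 and 2.5 under APTK, 4.44, 4.38, 4.44 and 3.84 under APTKA, 0.879, 1.03, 1.96 and 1.17 under irradiated APTK and 2.31, 2.88, 3.06 and 2.62 under irradiated APTKA medium. Its APTKA libraries lay above all others and its APTK libraries overlapped the untreated ones. The differences against untreated were 1.00, SE 0.164, edgeR adjusted p = 6.82e-06 with APTKA and -0.06, SE 0.18, edgeR adjusted p = 0.82 with APTK medium. Between the media it was 1.06, SE 0.165, edgeR adjusted p = 2.99e-06.

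Hist1h4h held 22.6, 22.2, 29.8 and 19.6 CPM untreated, 41.5, 22.9, 25.5 and 26.9 under APTK, 31.1, 25.6, 37.7 and 28.9 under APTKA, 21.5, 15.2, 26.2 and 21.3 under irradiated APTK and 24.6, 27.7, 26 and 26 under irradiated APTKA medium, and Hist4h4 10.4, 10, 11.6 and 12 CPM untreated, 13.1, 10.4, 10.4 and 9.08 under APTK, 11.3, 11.6, 11.4 and 11.4 under APTKA, 10.1, 8.31, 13.2 and 6.13 under irradiated APTK and 10.2, 11.1, 10.5 and 10.1 under irradiated APTKA medium. Neither passed the test against untreated, with 0.31 and 0.39 for Hist1h4h with APTK and APTKA medium (edgeR adjusted p = 0.191 and 0.0798). Hist1h4h did pass with APTKA medium when untreated replicate 3 (log2 0.52, edgeR adjusted p = 0.0255) or APTKA replicate 2 (0.47, 0.049) was left out, with only the compared groups in the fit (0.39, 0.0475), and with the small RNA level in the model (0.68, 0.00843). For Hist4h4 the values were -0.04 and 0.05 (edgeR adjusted p = 0.858 and 0.775). With the small RNA level in the model, Hist4h4 was called higher with APTKA medium, at 0.40 against untreated (edgeR adjusted p = 0.0145) and 0.43 against APTK medium (0.00774).

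APTK replicate 1, the library highest in small RNAs without a poly(A) tail, was also the highest APTK library for all 5 of these H4 genes. Without it, the differences with APTK medium against untreated were 0.68 (edgeR adjusted p = 0.00334) for Hist1h4a, 0.75 (edgeR adjusted p = 0.00139) for Hist1h4b, 0.58 (edgeR adjusted p = 0.000264) for Hist1h4c, 0.43 (edgeR adjusted p = 0.016) for Hist1h4d and 0.44 (edgeR adjusted p = 0.045) for Hist1h4f. All 5 stayed calls. Over all members, 8 were then called higher and 10 lower. Between APTKA and APTK medium, 22 were called higher and 1 lower without that library, with Hist1h4d among the former at 0.45 (edgeR adjusted p = 0.00686). With the small RNA level added to the model, an alternative chosen after seeing the data, the calls were 8 higher and 11 lower for APTK and 25 higher and 4 lower for APTKA medium against untreated.

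**Figure D3:**
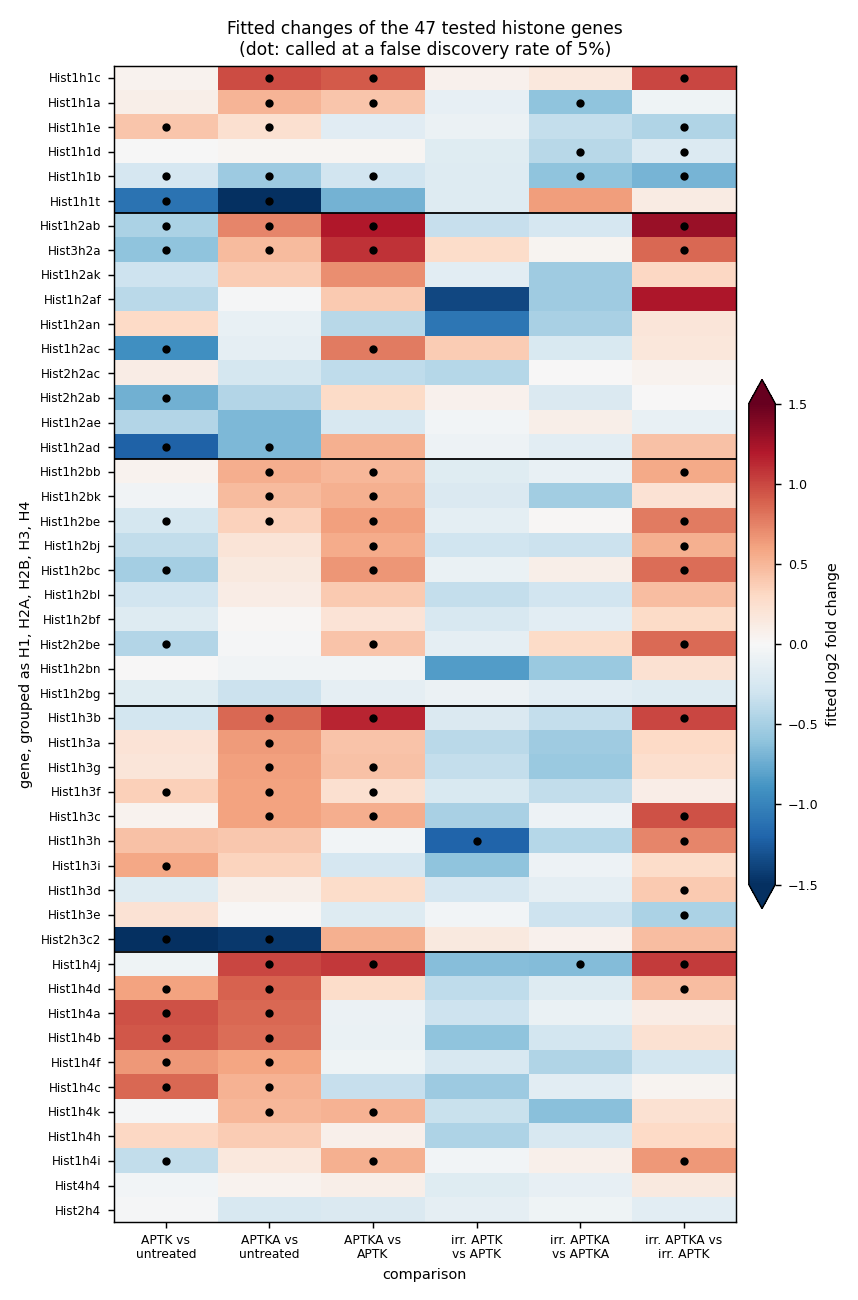
Fitted log2 fold change of each tested member in 6 comparisons, red for higher and blue for lower in the first-named group, with a dot for calls at a false discovery rate of 5%. Genes are grouped by class and ordered by the change with APTKA medium. Dots are frequent in the 4 comparisons between media and number 1 and 4 in the 2 comparisons with irradiation.

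Irradiation gave few calls in either medium, all of them lower. Irradiated against plain APTKA medium, 4 of 47 members were called lower and 0 higher, or 8.51%, where 0.729% of all genes tested were called (0.277% lower). They were the linker genes Hist1h1a, Hist1h1b and Hist1h1d and the H4 gene Hist1h4j. The groups did not overlap for 15 members, against 10.5% of all genes. By fitted value 37 of 47 members (78.7%) lay below 0, against 48.4% of all genes, and the median was -0.23 beside 0.00. Members vary together within groups (median r 0.236 over all pairs) and share sequence, so their signs are not separate observations. The summed CPM of H3 and of H4 genes did not overlap between plain and irradiated libraries, and that of H1, H2A and H2B genes did. At an unadjusted p under 0.05 there were 14 members. With DESeq2 the count of lower calls was 7, beside 90 among all genes tested, and with a fit of these 2 groups only it was 11. For the unadjusted p and the fit of 2 groups, the share over all genes is not given, so those counts are not read further.

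Hist1h1d had the smallest adjusted p of the 4. Plain APTKA libraries held 38.9, 35.4, 41.3 and 37.4 CPM and irradiated ones 28, 29.4, 28 and 29.6, without overlap, a difference of -0.41, SE 0.0564, edgeR adjusted p = 0.000381. Hist1h1b differed by -0.61, SE 0.113, edgeR adjusted p = 0.0067, and its 4 irradiated libraries were the lowest of the 20. Hist1h1a gave 6.93, 6.73, 8.83 and 6.43 under APTKA medium and 5.01, 5.51, 4.81 and 3.58 under irradiated APTKA medium, a difference of -0.60, SE 0.128, edgeR adjusted p = 0.0207. That call was lost without APTKA replicate 3 or irradiated APTKA replicate 1, 3 or 4 (log2 -0.63 to -0.49, edgeR adjusted p 0.0512 to 0.118). The call of Hist1h4j (-0.65, SE 0.157, edgeR adjusted p = 0.0417) was lost without any one of the 8 libraries (log2 -0.71 to -0.58, edgeR adjusted p 0.0678 to 0.187). Leaving out APTKA replicate 3 or irradiated APTKA replicate 1, 3 or 4 each gave 2 lower calls. Hist1h1c, with overlapping groups, was not called: 0.15, SE 0.0915, edgeR adjusted p = 0.535. Linker genes other than Hist1h1c summed to 102, 89.7, 113 and 93.6 CPM with plain and 71.5, 77.1, 74.5 and 74.7 with irradiated APTKA medium.

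Irradiated against plain APTK medium, 1 of 47 members was called lower and 0 higher, or 2.13%, where 1.38% of all genes tested were called (0.837% lower). By fitted value 42 of 47 (89.4%) lay below 0, against 48.9% of all genes, with a median of -0.22 beside 0.00, and all 10 H2B and 11 H4 genes were among them. Here too members vary together, so the signs are not separate observations. The summed CPM of all members and of each class overlapped between plain and irradiated APTK libraries. Groups did not overlap for 4 members, against 5.69% of all genes, and 14 had an unadjusted p under 0.05 (share of all genes not given). The called gene was Hist1h3h, with 1.28, 1.25, 1.91 and 1.83 CPM untreated, 2.34, 2.03, 2.16 and 2.04 under APTK, 1.85, 2.7, 2.13 and 1.65 under APTKA, 0.715, 0.344, 1.33 and 1.09 under irradiated APTK and 1.66, 1.52, 1.63 and 1.4 under irradiated APTKA medium. Its irradiated APTK libraries were below all plain ones, at -1.20, SE 0.237, edgeR adjusted p = 0.0127, a call lost without irradiated APTK replicate 1 (log2 -1.12, edgeR adjusted p = 0.057) or with a fit of these 2 groups only (edgeR adjusted p = 0.129). Only 6.1% of its transcript windows occur in no other gene. Without irradiated APTK replicate 3 or 4, 2 and 3 members were called lower, Hist1h4j (log2 -0.98, edgeR adjusted p = 0.0263) and Hist1h1d (-0.21, 0.0281) among them. Without APTK replicate 1, still 42 members lay below 0, with a median of -0.16. Irradiated APTK replicate 2 was the lowest of the 20 libraries for the summed members (522 CPM), and its small RNA level (12245 CPM) was the lowest of its group.

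**Figure D4:**
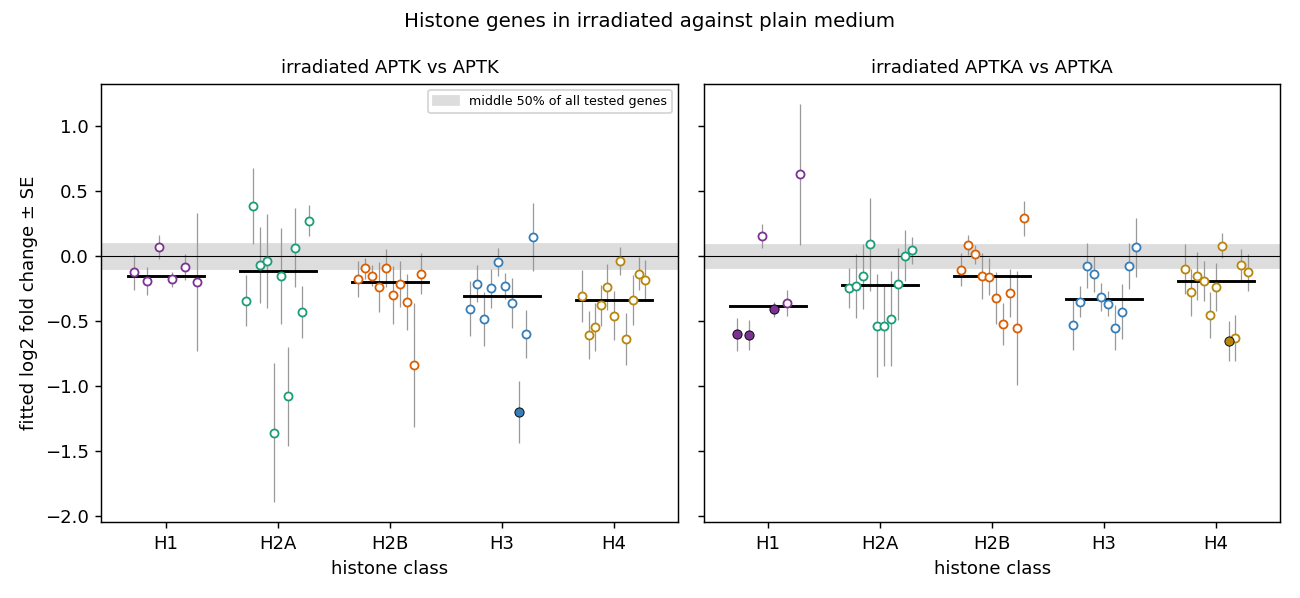
Fitted log2 fold change with its SE for each tested member, irradiated against plain APTK medium on the left and APTKA medium on the right, by histone class. Black lines are class medians, filled points are calls, and the grey band holds the middle 50% of all genes tested. Medians of all 5 classes lie below 0 in both panels.

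The difference between the 2 irradiation effects was not called for any member by edgeR, against 0.182% of all genes tested, and 5 members had an unadjusted p under 0.05 (share of all genes not given). It was -0.23, SE 0.08, edgeR adjusted p = 0.298 for Hist1h1d and -0.42 for Hist1h1b (edgeR adjusted p = 0.369). DESeq2 called none either.

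The irradiated media compared with each other again gave more higher than lower calls for APTKA. APTKA against APTK gave 15 higher and 4 lower calls, 40.4% of members against 61.3% of all genes tested (30.1% higher, 31.2% lower), with a median of 0.28 beside -0.03. There was no overlap for 16 members, against 51.5% of all genes. Under upper quartile scaling the median of all genes was -0.10 and the calls were 13 higher and 4 lower. Hist1h1c was 1.00, SE 0.0927, edgeR adjusted p = 3.01e-09, Hist1h2ab 1.30, SE 0.179, edgeR adjusted p = 4.76e-07, Hist1h3b 1.00, SE 0.135, edgeR adjusted p = 3.22e-07 and Hist1h4j 1.04, SE 0.189, edgeR adjusted p = 2.81e-05. The lower calls were Hist1h1b (-0.70), Hist1h1e (-0.45), Hist1h1d (-0.20) and Hist1h3e (-0.47), so that 3 of the 4 were linker genes, while Hist1h1c was higher. Hist1h4d, at 0.46, SE 0.159, edgeR adjusted p = 0.0177, lost its call without irradiated APTK replicate 2 (log2 0.37, edgeR adjusted p = 0.0528). This comparison shares no library with that of the plain media.

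The factors that make and cut histone transcripts were read from lists of their genes, chosen with earlier results of these data known. Of 22 genes of 3′ end processing, 14 were called higher and 2 lower with APTKA medium against untreated (all genes tested: 31.5% and 29.9%), and 2 higher and 6 lower with APTK medium (20.9% and 22.5%), with medians of 0.26 and -0.02. Slbp, which binds the stem-loop, stood at 22.1 ± 1.2 CPM in untreated libraries, 22.9 ± 0.93 with APTK and 31.5 ± 2.16 with APTKA medium (SD, n = 4), a rise of 0.52, SE 0.0648, edgeR adjusted p = 9.24e-08. Lsm11, of the U7 particle that directs the cut, went from 27.8 ± 4.61 to 48.7 ± 1.95 CPM with APTKA medium (0.81, SE 0.0863, edgeR adjusted p = 6.45e-09), and was 0.02 with APTK medium (edgeR adjusted p = 0.903). Its partner Lsm10 was -0.12 with APTKA medium (edgeR adjusted p = 0.156) and fell with APTK medium (-0.18, edgeR adjusted p = 0.0459). Zfp473, also linked to U7-dependent processing, rose with APTK medium (0.73, SE 0.209, edgeR adjusted p = 0.00592). Wdr33 and Cstf2t, of the machinery that adds poly(A) tails, rose with APTKA medium by 0.88 and 0.72 (edgeR adjusted p = 7.84e-15 and 1.87e-12). No gene of this list was called in either irradiation comparison.

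Of 14 genes of histone transcription and S-phase kinases, 7 were called higher and 1 lower with APTKA medium, and 6 higher and 0 lower with APTK medium, against 31.5% higher and 29.9% lower, and 20.9% and 22.5%, of all genes tested. Npat, the coactivator of histone genes, stood at 41.7 ± 3.05 CPM in untreated libraries and 48.3 ± 1.82 with APTKA medium (0.21, SE 0.0735, edgeR adjusted p = 0.0132). With APTK medium it was -0.03 (edgeR adjusted p = 0.761). Casp8ap2, which acts with Npat, rose with APTKA medium (0.37, SE 0.0751, edgeR adjusted p = 0.000116) and was 0.00 with APTK medium (edgeR adjusted p = 0.987). Ccne2, a cyclin E gene, rose with APTK medium by 1.00, SE 0.145, edgeR adjusted p = 2.59e-06 and was 0.08 with APTKA medium (edgeR adjusted p = 0.674). E2f1, a transcription factor of S-phase genes, rose with both, by 0.51 and 0.37 (edgeR adjusted p = 0.000257 and 0.00316). Ccna2 fell with irradiation of APTKA medium (-0.39, SE 0.0891, edgeR adjusted p = 0.0366).

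DNA replication genes rose more often than they fell in both media, with 21 of 28 higher and 1 lower with APTKA medium (all genes tested: 31.5% and 29.9%), and 15 higher and 4 lower with APTK medium (20.9% and 22.5%). Their medians were 0.50 and 0.27. Mcm3, of the replicative helicase, rose by 1.34 and 0.67 with APTKA and APTK medium (edgeR adjusted p = 9.71e-13 and 1.94e-06), whereas Pcna, the polymerase clamp, fell by 0.28 and 0.32 (edgeR adjusted p = 0.0102 and 0.00609). With irradiated against plain APTKA medium, where 0.277% of all genes tested were called lower, 3 of the 28 fell, Mcm2 (-0.50), Pola1 (-0.47) and Mcm3 (-0.38, edgeR adjusted p = 0.000381, 0.0388 and 0.0338), and the list's median was -0.26. In irradiated against plain APTK medium none of the 28 was called by edgeR, with a median of -0.06. Of 9 mitotic genes, 3 were higher with APTKA and 4 higher and 1 lower with APTK medium, set against 31.5% higher with APTKA, and 20.9% higher and 22.5% lower with APTK medium, of all genes tested. Mki67, a marker of cycling cells, was 0.35 and 0.26 (edgeR adjusted p = 0.0381 and 0.148).

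Of 15 genes of histone messenger decay 8 were higher and 4 lower with APTKA medium (all genes tested: 31.5% and 29.9%), of which Upf2 (1.20, edgeR adjusted p = 5.06e-12) and Upf1 (0.71, edgeR adjusted p = 2.69e-09) changed most. With APTK medium 1 was higher and 4 lower (20.9% and 22.5%). Eri1, the exonuclease that trims histone messenger ends, was 0.03 and 0.00 (edgeR adjusted p = 0.764 and 0.979). Of 21 chaperone genes 6 rose and 6 fell with APTKA medium, and 4 rose and 6 fell with APTK medium, shares near those of all genes tested. Chaf1b, of the factor that loads H3 and H4 behind the replication fork, rose with APTKA medium by 0.94, SE 0.117, edgeR adjusted p = 6.95e-08. Nasp, a chaperone of linker and H3 histones, rose with APTKA (0.36) and fell with APTK medium (-0.26, edgeR adjusted p = 0.000134 and 0.00719). Daxx fell with irradiated against plain APTK medium (-0.26, SE 0.0586, edgeR adjusted p = 0.0223).

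Replication-independent variants are encoded by single genes outside the rule, whose RNA is polyadenylated in whole or in part. Of the 11 tested, 5 were higher and 1 lower with APTKA medium (all genes tested: 31.5% and 29.9%), and 5 higher and 2 lower with APTK medium (20.9% and 22.5%). The linker variant H1f0 rose most, from 132 ± 6.31 CPM in untreated libraries to 239.8 ± 6.83 with APTK and 339 ± 30.3 with APTKA medium (0.86, SE 0.0607, edgeR adjusted p = 9.39e-12 and 1.36, SE 0.0612, edgeR adjusted p = 1.23e-16). The difference between the media was 0.50 for H1f0 and 0.92 for Hist1h1c (edgeR adjusted p = 4.09e-08 and 1.11e-08). H3f3b, of the H3.3 variant, was lower with APTK (-0.26) and higher with APTKA medium (0.36, edgeR adjusted p = 0.0048 and 9.97e-05), and so was H2afj (-0.34 and 0.43, edgeR adjusted p = 0.0156 and 0.00124). H2afz, of the promoter variant H2A.Z, fell with APTKA medium (-0.88, SE 0.162, edgeR adjusted p = 3e-05) and was -0.19 with APTK medium (edgeR adjusted p = 0.346). The centromere variant Cenpa and the linker gene H1fx rose with APTK medium (0.50 and 0.71, edgeR adjusted p = 0.00387 and 0.00364). With APTKA medium H2afy and H2afy2, the macroH2A genes, rose by 0.25 and 0.39 (edgeR adjusted p = 0.000144 and 9.3e-06). H2afv and H2afy rose with APTK medium (0.31 and 0.16, edgeR adjusted p = 0.00179 and 0.012), while H2afx and H3f3a passed in neither comparison with untreated. No variant was called in either irradiation comparison by edgeR.

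Among members themselves, levels over the 20 libraries ran most alike for Hist1h2ab and Hist1h3b (Pearson r of log2 CPM 0.943), for Hist1h2be and Hist1h2bc (0.937) and for Hist1h4a and Hist1h4c (0.911). After the group means were removed, r was 0.61, 0.533 and 0.925 for these pairs. Library and depth are shared by both genes of a pair, and Hist1h4a and Hist1h4c both have their highest value in APTK replicate 1. Of 10560 other genes ranked, Narfl (r = 0.98), Zc3h10 (0.969), Repin1 (0.968) and Klc4 (0.968) ran most like the summed members. Without Hist1h1c the sum was most like Psmg3 (0.88), Dph1 (0.866), Smug1 (0.858), Narfl (0.852) and Esrra (0.851). All these are descriptions over 20 libraries in 5 groups.

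By the end of the annotated model, members that end within 100 bases of the stem-loop summed to 66.5 to 81.9 CPM in untreated libraries and 95.04 to 113.7 with APTKA medium. Those that run further summed to 422.1 to 455 and 616 to 782 CPM, and those without the motif to 143.7 to 170.6 and 158.3 to 181.5 CPM. Single genes weigh heavily in these sums. Hist1h1c, which runs further, averaged 193 CPM untreated and 379 with APTKA medium. Hist1h2bc, without the motif, averaged 122 and 135 CPM. With APTKA medium against untreated, 31.5% of all genes tested were called higher and 29.9% lower. Of 14 tested members of the first kind, 9 were called higher and 1 lower. For 20 of the second kind the counts were 9 and 2, and for 13 of the third 2 and 1. The medians were 0.57, 0.12 and 0.11. With irradiated APTKA medium the medians were -0.26, -0.13 and -0.48, and with irradiated APTK medium -0.32, -0.14 and -0.34.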

How the data were processed

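Read counts per Ensembl gene were deposited for 20 libraries. The submitters' processing notes name featureCounts 1.5.0-p1, bcl2fastq 2.20.0.422, the build mm10 and STAR 2.5.2a. How reads that match several copies were handled is not given in the sources used here, nor are strand setting and annotation release, and the deposited count of a near-identical copy depends on them. Totals of 17.3 to 31.6 M counts set the precision. Counts were fitted in R 4.3.3 with edgeR 4.0.16 (TMM scaling, 5 group means, quasi-likelihood test, 15 residual degrees of freedom) over 14820 genes that passed filterByExpr, with Benjamini-Hochberg adjustment and calls at an FDR of 5%. The fit was tested on simulated data, with 50 changed genes per fold size. For APTKA against untreated it recovered 38% of genes changed 1.25-fold, 66% at 1.5-fold and 80% at 2-fold. For irradiated against plain APTK medium it recovered 36%, 72% and 86%. Of the calls, 5.44% and 5.81% were false. Small changes can therefore go uncalled. Alternatives were DESeq2 1.42.0, other scalings, no expression filter, fits of the compared groups only, a replicate block, each library left out, and a small RNA covariate. Stem-loops and windows were read from GENCODE transcripts, and promoters from RefSeq GRCm38.p6. Members given in full were the 12 most abundant and, per comparison, up to 4 largest rises and falls among called members without overlap. From each list up to 4 called genes and a preset few were named. Members and lists were chosen with earlier results of these data known.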

Additional observations from a re-analysis of the deposited data

Results flagged for a closer look

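In 10 of 130 groups of 4 libraries tested, 1 library stood far from the other 3, and chance alone gives about 1 in 20 groups. APTK replicate 1 was the high library for 3 H4 genes, with 47.7 CPM for Hist1h4c (others 24.1 to 26.4), 14.3 for Hist1h4b (8.8 to 9.44) and 6.61 for Hist1h4f (3.79 to 4.13). It also had the highest level of small RNAs without a poly(A) tail, 22018 CPM. Hist1h1c was high in APTKA replicate 1 at 476 CPM (others 334 to 357) and in irradiated APTKA replicate 3 at 459 CPM (404 to 411). The remaining ones were low. In irradiated APTKA replicate 1, Hist1h1e had 33.6 CPM (others 35.9 to 36.2) and Hist1h1t 0.072 CPM (0.251 to 0.279). Hist1h4j had 3.84 CPM in APTKA replicate 4 (others 4.38 to 4.44), Hist1h4f 3.5 in irradiated APTK replicate 2 (4.02 to 4.12), and Hist1h2ac 0.645 in irradiated APTKA replicate 4 (0.815 to 0.836).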

How the results depend on the processing

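Among single named members, 1091 values under the alternatives other than leaving out a library kept their direction and side of the threshold, 25 newly passed it, 13 no longer passed it, and none was reversed. Leaving out 1 library at a time gave 1338 unchanged calls, 13 gained and 41 lost. The cause of the following shifts in counts of called members was not tested. APTKA medium against APTK medium, with 1 lower call, had 5 under upper quartile scaling, 0 with no expression filter and 2 with a fit of only the compared groups, and 0 to 2 when 1 library was left out. For irradiated against plain APTKA medium, the 4 lower calls became 7 with DESeq2 (90 among all genes tested) and 11 with only the compared groups, and 2 to 4 when 1 library was left out. For irradiated against plain APTK medium, the 1 lower call became 3 with DESeq2 (217 among all genes tested), 0 with only the compared groups and 2 with the small RNA level as a covariate, and 0 to 3 when 1 library was left out. The difference of the irradiation effects had 0 lower calls, and 0 to 1 when 1 library was left out. Without its most abundant member, the summed CPM was 467.3 untreated, 478 under APTK, 569.3 under APTKA, 407.4 under irradiated APTK and 512.2 under irradiated APTKA medium, and without the 3 most abundant it was 308.3, 335.5, 365.1, 283.7 and 308.8. All other counts of calls stayed within 1.5 times their value under each alternative run.

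Libraries with the same replicate number did not deviate together (r of -0.108 to 0.0959 over 40 pairs), and 6 of 20 correlated best with their own number. These values cannot show whether an equal number marks a shared culture, mouse or day. With the replicate number as a block, the counts were 21 higher and 5 lower for APTKA against untreated, 8 and 11 for APTK against untreated, 19 and 1 between the media, 0 and 3 for irradiation of APTKA medium and 0 and 1 for APTK medium. Named calls that changed with the block were Hist1h1b with APTK medium (edgeR adjusted p = 0.0592), Hist1h4j with irradiated APTKA medium (0.0525), Hist1h4h with APTKA medium (0.0461) and Hist2h3c2 between the media (0.0418). Depth left 8 kept members, with 10 to 114 counts over all libraries, untested.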

Other observations

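Of the 68 genes with a replication-dependent histone symbol, 13 had fewer than 10 counts over the 20 libraries, and 9 of these had 0. For 5 of the 9 (Hist2h2aa1, Hist2h2aa2, Hist2h3b, Hist2h3c1 and Hist2h2bb) none of the 50-base transcript windows is unique to the gene. Hist1h2aa also had 0 counts, with 76.2% of its windows unique, and Hist1h2ba, with 61.8% unique, had 2 counts.

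The 8 kept members that were too low to test had 10 to 114 counts in all. Hist1h2bp had 38 counts in the 4 untreated libraries together, 12 under APTK, 30 under APTKA, 6 under irradiated APTK and 28 under irradiated APTKA medium. Hist3h2bb-ps, a processed pseudogene, had 11, 9, 19, 3 and 15 counts in the same order, and Hist1h4m had 18, 7, 13, 1 and 13.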
